A study of Mus musculus with 8 samples.

Results

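A set of 10 genes known from the hair germ and the growing hair were followed here in resting stem cells: Lef1, Msx1, Msx2, Dlx3, Foxn1, Cux1, Runx1, Cdh3, Tchh and Padi3. They were taken by symbol from a table of 46517 genes, and all 10 were found. The hair follicle renews itself in cycles. In rest, the stem cells sit in the bulge, and the hair germ below it is the first compartment to divide when growth starts. Its progeny form the matrix, which makes the hair shaft and the inner root sheath. Wnt signalling acts through Lef1 in the germ and in the cells that become shaft, and homeobox, forkhead and Runt factors then set the fate of the matrix cells. Trichohyalin and the enzyme that modifies it harden the inner root sheath and the medulla at the end of that path.

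RNA was sequenced from bulge stem cells of male back skin, taken at postnatal day 70 in the resting phase. Cells were sorted as alive, negative for Sca-1 and positive for integrin alpha 6 and CD34. Each of the 4 groups held 2 libraries, and each library carried another animal number, so replicates were read as separate animals. The question set by the series was what loss of the transcription factors NFIB and NFIX does to these cells. The WT mice (animals 34 and 82) carried NFIBfl/fl, NFIXfl/fl and R26-YFPfl/fl without Cre. NFIB-cKO mice (81 and 85) carried Sox9-CreER, NFIBfl/fl and R26-YFPfl/fl. NFIX-cKO mice (32 and 88) carried Sox9-CreER, NFIXfl/fl and R26-YFPfl/fl, and in addition 1 floxed NFIB allele (NFIBfl/+). NFIB/X-dKO mice (33 and 36) carried Sox9-CreER with NFIBfl/fl, NFIXfl/fl and R26-YFPfl/fl. The reporter and at least 1 floxed NFIB allele were thus in every group, whereas Cre and the sort on YFP were in the knockouts only. Cre and YFP sorting therefore cannot be told apart from the gene losses in any comparison with WT. In NFIX-cKO, loss of NFIX also cannot be told apart from loss of the 1 floxed NFIB allele. Sox9 drives the CreER in follicle cells, and the labels do not say which part of each gene was removed. Nfib itself was at 229.56 and 208.98 TPM in WT, 293.27 and 232.8 TPM in NFIB-cKO, 199.97 and 147.91 TPM in NFIX-cKO, and 376.85 and 388.57 TPM in NFIB/X-dKO. Nfix was at 158.02 and 157.1 TPM in WT, 154.2 and 147.38 TPM in NFIB-cKO, 138.38 and 123.35 TPM in NFIX-cKO, and 125.11 and 148.08 TPM in NFIB/X-dKO. Nfib was thus not lower in the libraries labelled as NFIB knockouts, and Nfix lay only slightly lower in those labelled as NFIX knockouts. These values are summed over each gene and would still hold reads from exons that were kept, so they do not check the deletions, and the group names below are those of the labels.

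Levels are TPM, a transcript abundance corrected for length and library total. Expected counts summed to between 57173266 and 66854625 in the 5 libraries with gene tables, and the depth of the other 3 was unknown. The bulge keratin Krt15 lay between 7507 and 14487 TPM and Cd34 between 811 and 1144 TPM in all 8 libraries, so the sorted population carried both. However, 4 of 13 bulge markers (Krt24, Lhx2, Lgr5 and Foxc1) fell in NFIB/X-dKO against WT. Ly6a, which encodes the excluded Sca-1, was at 36.95 TPM in NFIX-cKO 32 and at 28.66 and 24.44 TPM in NFIB/X-dKO. In WT, NFIB-cKO and NFIX-cKO 88 it was at 6.46 to 11.94 TPM. Animals were numbered in the 30s (WT 34, NFIX-cKO 32 and both NFIB/X-dKO) or in the 80s (WT 82, NFIX-cKO 88 and both NFIB-cKO), and the libraries differed between these series. NFIB-cKO had no animal of the 30s and NFIB/X-dKO none of the 80s. Summed levels of markers of other cell types varied. The 8 sebocyte markers summed to 200 and 317 TPM in WT and to between 52.2 and 161 TPM in the knockouts. The 7 epidermal markers summed to between 2669 and 4231 TPM in the 30s and between 1730 and 2105 TPM in the 80s. The sum of the 10 cell cycle genes was highest in NFIB-cKO 85, at 554 TPM, against 283 to 359 TPM in the other 7. Pcna, at 168.22 to 262.9 TPM, was the largest part of each sum. Gene by gene, on the log2(TPM + 1) scale, their median difference from WT was largest for NFIB-cKO (1.92), then NFIX-cKO (1.08), then NFIB/X-dKO (0.60). None of the 10 passed the limma test against WT. Endothelial markers stayed at or under 2.27 TPM in sum. The 12 fibroblast and dermal papilla markers summed to between 128 and 234 TPM, with 9 of them under 1 TPM in all libraries (Corin at or under 0.07 TPM). Of these, Col1a1 rose by 1.97 and Col6a1 fell by 1.34 on the log2(TPM + 1) scale in NFIB/X-dKO against WT (limma adjusted p = 0.0219 and 0.00612). Col1a1 was at 55.09 to 77.31 TPM in NFIB-cKO, 53.32 and 65.13 TPM in NFIB/X-dKO and 8.27 to 16.65 TPM in the other 4 libraries. The part of these markers in the results below was not tested, and in bulk RNA fewer cells of a type and less RNA per cell cannot be told apart.

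Since the deleted genes encode nuclear factor I proteins, upstream sequence was searched for the NFI motif, TTGGC, on both strands (GCCAA on the other strand). The windows were the 250 bases before a gene's start, from RefSeq on GRCm38.p6. Windows were found for 8 of the 10 genes, 12 in all, and 9 windows of 7 genes held the motif. Of 32851 windows over all genes 41.51% held it. The Lef1 windows at chr3:131110047-131110296 and chr3:131110073-131110322 overlap and share the same match, which counts in both. These Lef1 windows and those of Cux1 and Msx2 lay over their full 250 bases within exons of GENCODE M21. GC content, at a median of 52.4% over all windows, ranged in the set from 27.6% (Tchh) to 68.0% (Msx1) and was not adjusted for. No window of the set held a full palindromic site, which is TTGGC, 5 bases and GCCAA, and 0.037% of all windows did. Windows are shown for the set's gene with the most matches, for the forkhead factor and for the homeobox gene whose level was lowest in NFIB/X-dKO, with matches in capitals. They come from the minus strand and are written 5′ to 3′, at chr4:140810649-140810898 (Padi3), chr11:78386609-78386858 (Foxn1) and chr5:37824586-37824835 (Msx1), and none overlaps an exon of GENCODE M21.
Padi3: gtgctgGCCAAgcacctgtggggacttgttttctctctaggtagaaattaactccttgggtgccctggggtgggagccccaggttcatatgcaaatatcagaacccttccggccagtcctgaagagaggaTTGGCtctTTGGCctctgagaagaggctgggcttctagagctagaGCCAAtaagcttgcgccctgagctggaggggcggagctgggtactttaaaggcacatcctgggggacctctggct
Foxn1: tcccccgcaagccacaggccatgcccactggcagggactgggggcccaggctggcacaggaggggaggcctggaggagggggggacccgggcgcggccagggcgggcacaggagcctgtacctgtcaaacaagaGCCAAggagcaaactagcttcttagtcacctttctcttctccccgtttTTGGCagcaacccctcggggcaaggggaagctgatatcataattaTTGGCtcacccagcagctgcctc
Msx1: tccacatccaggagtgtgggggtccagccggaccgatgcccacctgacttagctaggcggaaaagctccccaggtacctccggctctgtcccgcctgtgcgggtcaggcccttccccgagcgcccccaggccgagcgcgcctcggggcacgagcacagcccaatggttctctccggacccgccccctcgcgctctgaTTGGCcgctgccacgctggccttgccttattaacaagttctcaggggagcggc

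The Padi3 window held 4 matches, a number reached by 0.51% of all windows, the Foxn1 window 3 and the Msx1 window 1. The upstream start of Runx1 (window chr16:92826075-92826324, minus strand) held a pair of matches that face each other with 4 bases between them, 1 base fewer than in the full site. This spacing was noticed after the sequence had been read. It occurred in 15 of the 32851 windows. The 30 bases around it begin at position -72 relative to the RefSeq start. Of this window 75 bases overlap an exon of GENCODE M21, which places the start of Runx1 at 92826149, upstream of these 30 bases.
Runx1: tcacgtgaTTGGCaagaGCCAAtggcggtg
These matches are letters in a window. No binding was measured in the files used here.

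In the resting bulge the 10 genes covered a wide range of levels. Cdh3 and Runx1 were the highest, at 36.16 to 64.98 TPM and 17.95 to 41.02 TPM. Cux1, Dlx3, Msx2, Tchh, Msx1 and Lef1 lay between 0.97 and 8.84 TPM, and their ranges overlapped. Foxn1 lay between 0.24 and 1.16 TPM, and Padi3 at or under 0.05 TPM. A gene was tested when it reached 1 TPM in at least 2 libraries. All but Foxn1 and Padi3 did so. Gene positions below are on GRCm38, from GENCODE M21, where all 10 are protein-coding.

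**Figure D1:**
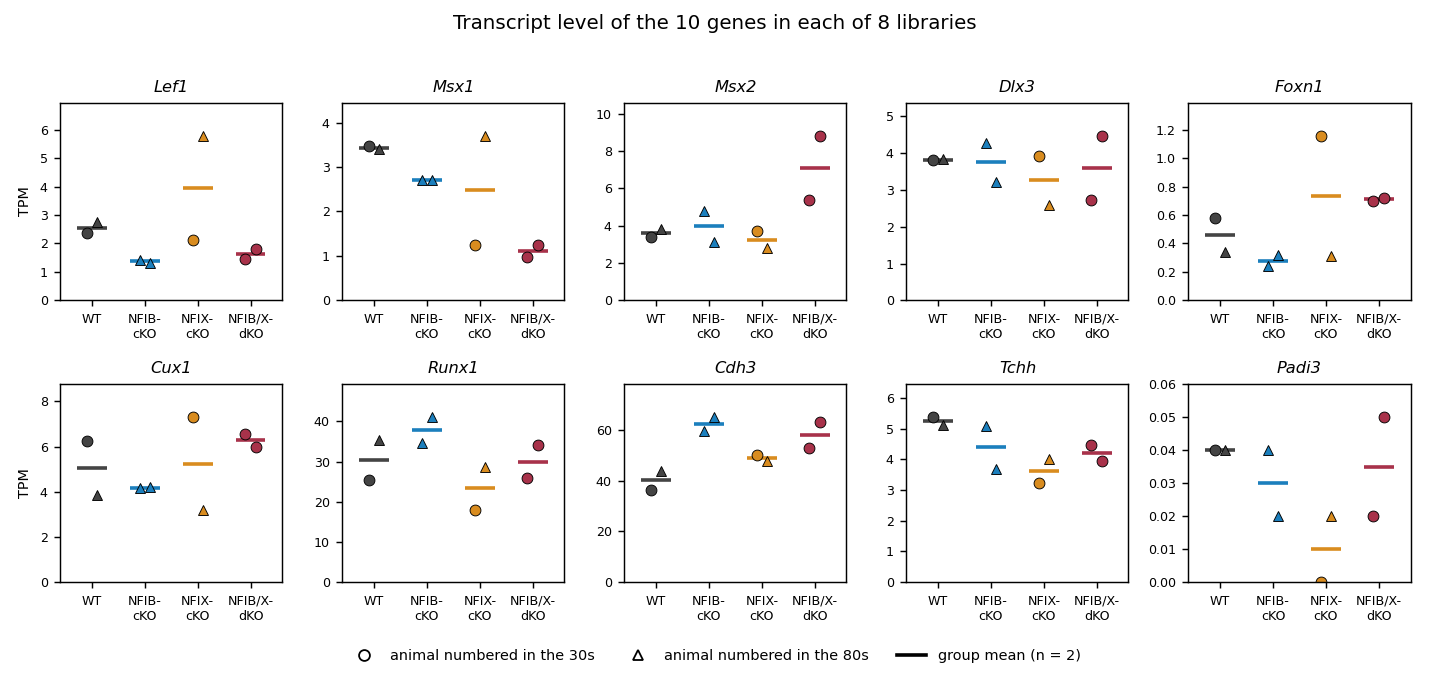
TPM of each of the 10 genes (vertical axes, linear from 0) in the 8 libraries, by group. Points are libraries, their shape gives the series of the animal number, and bars are means of 2; Cdh3 is above both WT libraries in all 6 knockout libraries, and the circles of Cux1 and Foxn1 lie above the triangles.

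None of the 8 tested genes passed the test in any comparison between genotypes. The test was limma on log2(TPM + 1) over 15434 genes, with Benjamini-Hochberg adjustment and an adjusted p under 0.05. Comparing NFIB/X-dKO to WT called 0 of the 8, where it called 2.88% of all genes (1.62% higher, 1.26% lower). Each single knockout set against WT also called 0 of 8, with background shares of 0.719% (NFIB-cKO) and 0.149% (NFIX-cKO). The double knockout set against each single one called 0 of 8, with background shares of 0.227% (to NFIB-cKO) and 0.784% (to NFIX-cKO). The non-additive contrast, the NFIB/X-dKO difference from NFIB-cKO minus the NFIX-cKO difference from WT, called 0.117% of all genes. The mean NFIB contrast, the average of NFIB-cKO minus WT and NFIB/X-dKO minus NFIX-cKO, called 2.48%. Because NFIX-cKO carried 1 floxed NFIB allele with Cre and WT had no Cre, neither contrast isolates the loss of 1 gene. Without adjustment, p was under 0.05 for 3 of the 8 genes in NFIB/X-dKO against WT, where it was for 16.8% of all genes. That number was 1 in NFIB-cKO against WT (12.6% of all genes) and 0 in NFIX-cKO against WT (6.81%). It was 2 for the double knockout against NFIB-cKO (17.2%) and 1 for it against NFIX-cKO (14.5%). It was 0 in the non-additive contrast (9.43%) and 3 in the mean NFIB contrast (15.4%). The median difference of the 8 genes from WT in NFIB/X-dKO was -0.05 on the log2 scale, against 0.16 over all genes tested. A count test (edgeR, quasi-likelihood) was possible between the double knockout and NFIX-cKO and called 0 of 9 genes (0.322% of all genes), with an unadjusted p under 0.05 for 2 of 9 (14.7% of all genes). Without regard to tests, both NFIB/X-dKO libraries lay above both WT libraries for Msx2 and Cdh3, as in 38.4% of all genes, and below for Lef1, Msx1 and Tchh, as in 17.1%. Both NFIB-cKO libraries lay above WT for Cdh3, as in 21.7%, and below for the same 3 genes, as in 16.6%. Both NFIX-cKO libraries lay above WT for Cdh3, as in 9.64%, and below for Tchh, as in 16.2%. With 2 libraries a group, a miss at the threshold does not show equal levels. Comparisons with WT share the WT libraries.

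**Figure D2:**
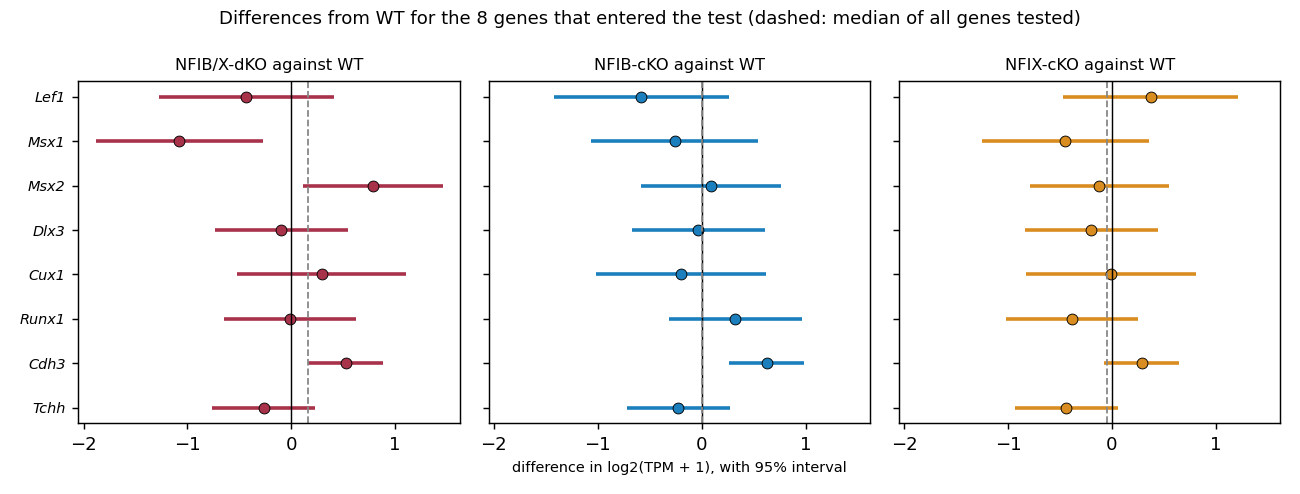
Difference from WT in log2(TPM + 1) (horizontal axis) for the 8 tested genes in each knockout group, with 95% intervals from limma; dashed lines mark the median of all genes tested. In NFIB/X-dKO the intervals of Msx1, Msx2 and Cdh3 lie off 0, in NFIB-cKO that of Cdh3, and none does in NFIX-cKO; no difference passed after adjustment.

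Cdh3 (chr8:106510891-106557297, plus strand) encodes P-cadherin, the adhesion protein that marks the hair germ. Its level was 36.16 and 43.97 TPM in WT, 59.38 and 64.98 TPM in NFIB-cKO, 50.15 and 47.55 TPM in NFIX-cKO, and 53.03 and 63.01 TPM in NFIB/X-dKO. Every knockout library was thus above both WT libraries, as in 4.81% of all genes tested, and the 4 libraries labelled as lacking NFIB were above the other 4, as in 6.84%. Differences here and below are on the log2(TPM + 1) scale unless stated. Cdh3 differed from WT by 0.63 ± 0.15 (SE) in NFIB-cKO (limma adjusted p = 0.134). The NFIX-cKO difference was 0.29 ± 0.15 (limma adjusted p = 0.795), and 0.15 without WT 34. In the double knockout it was 0.52 ± 0.15 (limma adjusted p = 0.149). The mean NFIB contrast was 0.43 ± 0.11 (limma adjusted p = 0.104), and with the animal series as a covariate its adjusted p was 0.0495. The median of all genes lay above 0 in NFIB/X-dKO: scaling the libraries by the median of ratios brought the median of all genes from 0.16 to 0 and the Cdh3 difference to 0.35. By counts Cdh3 did not pass in NFIB/X-dKO compared to NFIX-cKO (edgeR adjusted p = 0.999).

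Among 18 paralogs and binding partners of the set, 7 entered the test and 1 was called. Cdh1, which encodes E-cadherin, the main adhesion protein of epithelia, was at 172.63 and 152.37 TPM in WT, 273.21 and 245.23 TPM in NFIB-cKO, 205.92 and 139.58 TPM in NFIX-cKO, and 321.63 and 366.03 TPM in NFIB/X-dKO. The NFIB/X-dKO libraries were above all others, as in 20.8% of all genes tested. It rose by 1.08 ± 0.20 in NFIB/X-dKO against WT (limma adjusted p = 0.0387), and its mean NFIB contrast was 0.84 ± 0.14 (adjusted p = 0.0308), kept in 6 of 13 alternatives. The first call was kept in 8 of 15 alternative settings and was lost, with the difference between 0.98 and 1.17, without either WT or either NFIB/X-dKO library, among others. Cdh1 and Cdh3, both classical cadherins, were each higher in all 4 libraries labelled as lacking NFIB than in the other 4, Cdh1 past the test and Cdh3 not.

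Lef1 (chr3:131110471-131224356, plus strand) encodes the transcription factor that takes Wnt signals to their target genes in the germ and the shaft precursors. Its level was 2.37 and 2.74 TPM in WT, 1.42 and 1.33 TPM in NFIB-cKO, 2.11 and 5.8 TPM in NFIX-cKO, and 1.47 and 1.8 TPM in NFIB/X-dKO. The 4 libraries labelled as lacking NFIB were below the other 4, as in 2.11% of all genes tested, and NFIX-cKO 88 stood above the rest. The mean NFIB contrast was -0.69 ± 0.25 (limma adjusted p = 0.249). Without NFIX-cKO 32 it was -0.98 with an adjusted p of 0.0350, and without NFIX-cKO 88 it was -0.41. By counts Lef1 had a log2 fold change of -1.65 ± 0.61 in NFIB/X-dKO against NFIX-cKO (edgeR adjusted p = 0.333). Another count test, DESeq2, gave -1.68 ± 0.56 (DESeq2 adjusted p = 0.0598). The edgeR value was -0.54 without NFIX-cKO 88 and -2.28 without NFIX-cKO 32, fits that leave 1 NFIX-cKO library.

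Of 17 partners of Lef1 and Wnt target genes, 14 were tested, and 2 passed as lower and 0 as higher in NFIB/X-dKO against WT (list median -0.02). Axin2, also on this list, lay the other way without passing. It was at 31.15 and 32.45 TPM in WT, 30.77 to 61.5 TPM in the single knockouts, and 83.31 and 78.44 TPM in NFIB/X-dKO. Both NFIB/X-dKO libraries were above the other 6, as in 20.8% of all genes tested. Nkd1, a feedback inhibitor of Wnt signalling, was at 3.54 and 5.13 TPM in WT and at 0.9 and 0.49 TPM in NFIB/X-dKO, with 1.4 to 2.11 TPM in the single knockouts. Its difference was -1.65 ± 0.26 (limma adjusted p = 0.0262), and the call was kept in 6 of 14 alternatives (-2.51 with a pseudocount of 0.1). Lgr5 encodes a receptor for the Wnt agonists R-spondins and is a bulge and germ marker. It was at 121.44 and 128.86 TPM in WT and 38.56 and 44.82 TPM in NFIB/X-dKO, with 49.18 to 82.02 TPM in the single knockouts. Its difference was -1.57 ± 0.20 (limma adjusted p = 0.0128), kept in 12 of 15. The mean NFIB contrast of Lgr5 was -0.98 ± 0.14 (limma adjusted p = 0.0211), kept in 7 of 13. The calls of Nkd1 and Lgr5 in NFIB/X-dKO against WT were lost without either NFIB/X-dKO library, as were those of Cdh1, Foxi3 and Fgfr1. Tle1, a corepressor that binds Lef1, rose in the mean NFIB contrast by 0.76 ± 0.14 (adjusted p = 0.0469), a call kept in 3 of 13 alternatives. It was at 43.09 and 51.79 TPM in NFIB-cKO and 62.03 and 42.75 TPM in NFIB/X-dKO. These lay above the 25.36 to 34.07 TPM of the other 4 libraries, as in 6.84% of all genes tested.

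The homeobox genes Msx1 (chr5:37820485-37824583, minus strand) and Msx2 (chr13:53466884-53473074, minus strand), which encode repressors that act in the hair matrix, lay at opposite ends in NFIB/X-dKO, neither past the test. Msx1 was at 3.47 and 3.41 TPM in WT, 2.7 and 2.72 TPM in NFIB-cKO, 1.25 and 3.71 TPM in NFIX-cKO, and 0.97 and 1.24 TPM in NFIB/X-dKO. Msx2 was at 3.39 and 3.82 TPM in WT, 4.79 and 3.14 TPM in NFIB-cKO, 3.72 and 2.79 TPM in NFIX-cKO, and 5.39 and 8.84 TPM in NFIB/X-dKO. Both NFIB/X-dKO libraries were below the other 6 for Msx1, as in 5.28% of all genes, and above the other 6 for Msx2, as in 20.8%. The difference from WT was -1.08 ± 0.34 for Msx1 (limma adjusted p = 0.179) and 0.79 ± 0.28 for Msx2 (adjusted p = 0.230). For Msx2 it was 0.47 without NFIB/X-dKO 36 and 1.10 without NFIB/X-dKO 33. Without NFIX-cKO 32 the adjusted p of Msx1 was 0.0365, and without NFIX-cKO 88 it was 0.0382, settings that leave the WT and NFIB/X-dKO libraries as they are and change the shared spread. Against NFIB-cKO, Msx1 differed by -0.82 ± 0.34 (limma adjusted p = 0.288) and Msx2 by 0.70 ± 0.28 (adjusted p = 0.287), with 0.38 for Msx2 without NFIB/X-dKO 36 and 0.45 without NFIB-cKO 85. Fitted on those 2 groups alone, Msx1 had an adjusted p of 0.0323, in a fit that called 3086 genes. These groups are also 30s against 80s throughout, and with the series as a covariate the Msx1 difference was -0.30 (limma adjusted p = 0.953). NFIX-cKO 32, an animal of the 30s, lay just above NFIB/X-dKO 36 for Msx1, and NFIX-cKO 88 lay above both WT libraries, so the NFIX-cKO libraries lay far apart.

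Dlx3 (chr11:95120119-95125296, plus strand), a homeobox gene needed for shaft and inner root sheath, had overlapping groups throughout. It was at 3.82 and 3.83 TPM in WT, 4.29 and 3.21 TPM in NFIB-cKO, 3.92 and 2.6 TPM in NFIX-cKO, and 2.72 and 4.48 TPM in NFIB/X-dKO. The difference of NFIB/X-dKO from WT was -0.10, with a 95% interval from -0.74 to 0.55.

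Of 23 germ and matrix signalling genes 20 were tested, and 2 fell and 0 rose in NFIB/X-dKO against WT (list median -0.14). Foxi3, a forkhead factor of the early hair placode and germ, was at 2.44 and 2.65 TPM in WT, 1.12 and 1.09 TPM in NFIB-cKO, 2.34 and 2.77 TPM in NFIX-cKO, and 0.6 and 0.57 TPM in NFIB/X-dKO. The 4 libraries labelled as lacking NFIB were below the other 4, as in 2.11% of all genes tested. It fell by 1.16 in NFIB/X-dKO (SE 0.20, limma adjusted p = 0.0312), kept in 5 of 14 alternatives (-1.95 with a pseudocount of 0.1). The mean NFIB contrast of Foxi3 was -0.96 ± 0.14 (limma adjusted p = 0.0211), kept in 6 of 12. Fgfr1, a receptor for fibroblast growth factors, was at 320.46 and 398.95 TPM in WT, between 195.17 and 255.38 TPM in the single knockouts, and at 172.96 and 181.51 TPM in NFIB/X-dKO. It fell by 1.01 (SE 0.15, limma adjusted p = 0.0209), kept in 7 of 15. Sebocyte markers were lower in the same NFIB/X-dKO libraries, as given above, and their part was not tested. No gene of these lists was called in either single knockout against WT (limma), where 0 of 14, 0 of 7 and 0 of 20 tested genes passed.

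**Figure D3:**
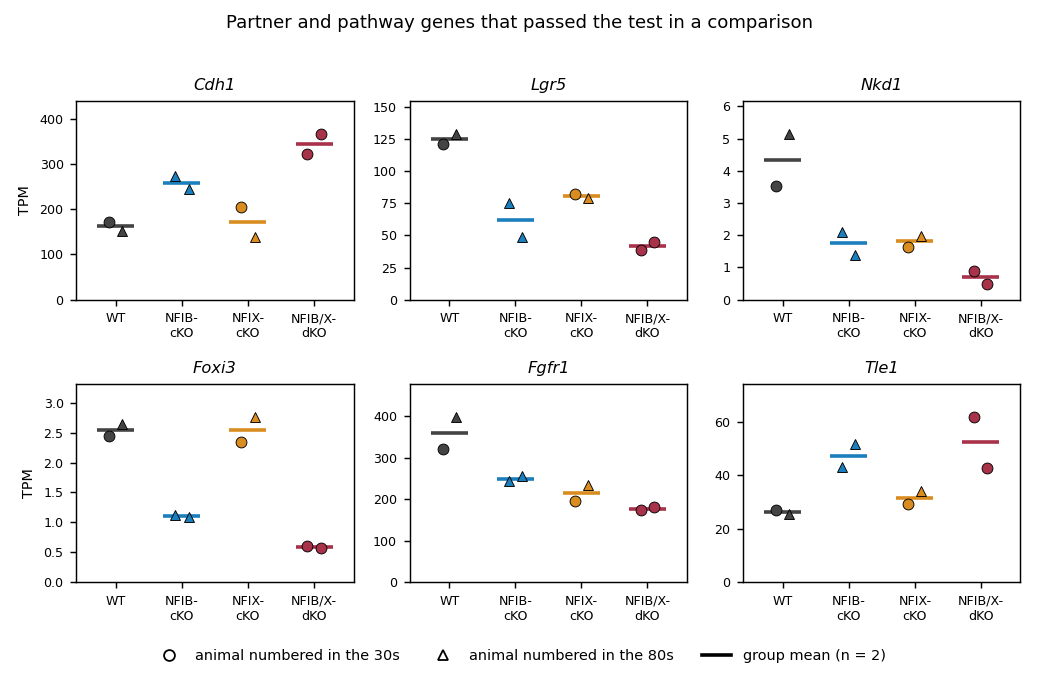
TPM (vertical axes, linear from 0) of the 6 partner and pathway genes called in at least 1 comparison, by group; points are libraries and bars means of 2. Cdh1 is highest and Lgr5, Nkd1, Foxi3 and Fgfr1 are lowest in the NFIB/X-dKO libraries, while Tle1 is higher in the 4 libraries labelled as lacking NFIB.

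Cux1 (chr5:136248135-136567490, minus strand) separated by animal number, while each knockout group overlapped WT. This homeobox gene, expressed in the inner root sheath lineage, was at 6.25 (WT 34), 7.3 (NFIX-cKO 32), and 6.55 and 6 TPM (NFIB/X-dKO) in the 30s. In the 80s it was at 3.87 (WT 82), 4.16 and 4.21 (NFIB-cKO) and 3.18 TPM (NFIX-cKO 88). The series did not overlap, and 25.7% of all genes tested were likewise higher in every library of the 30s. With groups in the model, a test added after these values were seen, Cux1 differed by -0.78 ± 0.15 in the 80s against the 30s (limma adjusted p = 0.0350), where 15.8% of all genes passed. It was the 1 of 8 genes of the set to pass, and the call was lost after median-of-ratios scaling (-0.56, adjusted p = 0.0772), with no filter, and without any 1 library of WT, NFIX-cKO or NFIB/X-dKO. The sum of the epidermal markers was also higher in every library of the 30s, although Sbsn and Krtdap overlapped between the series. The part of these markers was not tested.

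Foxn1 (chr11:78357577-78386558, minus strand), the forkhead gene whose loss leaves nude mice hairless, showed the same split below the filter. It was at 0.58, 1.16, 0.7 and 0.72 TPM in the 30s and at 0.34, 0.24, 0.32 and 0.31 TPM in the 80s. In the 5 libraries with counts these stood for 43 to 145 expected counts. Its series difference without a filter was -0.48 ± 0.14 (limma adjusted p = 0.132), and by counts it did not pass in NFIB/X-dKO compared to NFIX-cKO (edgeR adjusted p = 0.883).

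Runx1 (chr16:92601466-92826149, minus strand), a Runt factor that acts in the bulge and germ when growth starts, was at 25.39 and 35.28 TPM in WT, 34.7 and 41.02 TPM in NFIB-cKO, 17.95 and 28.67 TPM in NFIX-cKO, and 25.82 and 34.08 TPM in NFIB/X-dKO. In WT and NFIX-cKO the animal of the 80s was the higher. The NFIB/X-dKO group overlapped WT, with a difference of -0.01 and a 95% interval from -0.65 to 0.62, and 4 alternatives gave it the opposite sign. The series difference was 0.55 ± 0.16 (limma adjusted p = 0.0623). Markers of immune cells, a lineage that uses Runx1, summed to 11.1 to 49.0 TPM, mostly Cd74 (9.49 to 41.38 TPM), with Ptprc at or under 0.61 TPM. The sum was highest in NFIX-cKO 32, where Runx1 was lowest, and the part of these cells was not tested.

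Mean transcript length, weighted by the share of each transcript, was given for 5 libraries. For Cux1, with 14 transcripts in the annotation the submitters used, it was 3666 and 3659 bases in NFIB/X-dKO. It was 3334 bases in NFIX-cKO 32, 2901 bases in NFIX-cKO 88 and 3176 bases in NFIB-cKO 85. For Runx1, with 7 transcripts, it was 5112 and 5054 bases in NFIB/X-dKO, 4806 and 4661 bases in NFIX-cKO 32 and 88, and 4444 bases in NFIB-cKO 85. Both genes thus had longer transcripts on average in NFIB/X-dKO than in the other 3 libraries, as in 14.7% of 9701 genes whose length varied. They were also longer in the 3 libraries of the 30s than in the 2 of the 80s, as in 22.7%, so that genotype and series overlap here. For Lef1 the length was 3120 and 3031 bases in NFIB/X-dKO and 3163 to 3220 bases in the others, shorter in NFIB/X-dKO as in 11.1% of genes. No test was made on these lengths.

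**Figure D4:**
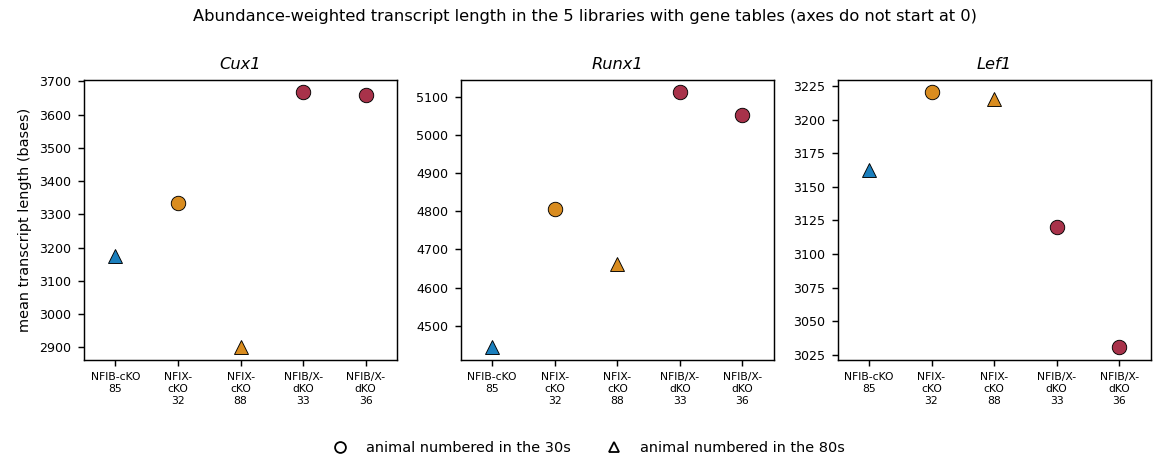
Mean transcript length in bases (vertical axes, not from 0) of Cux1, Runx1 and Lef1 in each of 5 libraries (horizontal axis); each point is 1 library and its shape gives the series. Cux1 and Runx1 are longest and Lef1 is shortest in the 2 NFIB/X-dKO libraries.

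At the end of the lineage, Tchh (chr3:93442330-93449077, plus strand), which encodes trichohyalin of the inner root sheath and medulla, was at 5.37 and 5.11 TPM in WT, 5.09 and 3.68 TPM in NFIB-cKO, 3.22 and 4.02 TPM in NFIX-cKO, and 4.45 and 3.93 TPM in NFIB/X-dKO. All 6 knockout libraries were below both WT libraries, as in 4.16% of genes, but NFIB-cKO 81 was lower than WT 82 by little. The difference from WT was -0.27 ± 0.21 for the double knockout (limma adjusted p = 0.521), -0.22 ± 0.21 for NFIB-cKO (adjusted p = 0.745) and -0.44 ± 0.21 for NFIX-cKO (adjusted p = 0.766). The NFIB-cKO value was -0.035 without NFIB-cKO 85 and -0.41 without NFIB-cKO 81, and scaling brought that of the double knockout to -0.41. Padi3 (chr4:140785365-140810648, minus strand), the deiminase that modifies trichohyalin, was at 0.04 TPM in both WT libraries, 0.04 and 0.02 TPM in NFIB-cKO, 0 and 0.02 TPM in NFIX-cKO, and 0.02 and 0.05 TPM in NFIB/X-dKO. In the 5 libraries with counts it had 0 to 6.48 expected counts. A count of 0 allows up to 3 counts, or 0.0241 TPM in NFIX-cKO 32, for counting error only, so no difference in Padi3 was detectable at this depth.

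Most structural genes of the shaft were near 0 in every group. Of the 20 shaft genes found, 16 were under 1 TPM in all 8 libraries and 3 at 0 throughout. Exceptions were the keratin Krt32, at 6.89 to 16.02 TPM, and S100a3, at 18.77 to 30.54 TPM. Krt35, a keratin of the early shaft, lay at or under 0.33 TPM and Krt31, a keratin of the cortex, at or under 0.48 TPM. Hoxc13, the homeobox factor that drives hair keratin genes, was measured at 8.16 to 14.43 TPM. It was highest in the NFIB/X-dKO libraries (14.43 and 13.53 TPM), as in 20.8% of all genes tested, with 12.06 TPM in NFIB-cKO 81. The sum over the list was mostly Lgals7, a galectin of stratified epithelia (2677 to 4289 TPM). None of the 4 shaft genes tested passed in NFIB/X-dKO against WT (list median -0.04). Of 14 inner root sheath genes 9 were tested and 0 passed (list median 0.45). Krt71, an inner root sheath keratin, lay at or under 0.99 TPM, and Gata3, a factor of that lineage also present in other epithelia, at 33.79 to 47.82 TPM.

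For 6 of the tested genes the 2 genes with the most similar pattern are given, found among 9890 genes with a mean of at least 5 TPM, by Pearson correlation of log2(TPM + 1) over the 8 libraries, without predicted genes. For Msx1 they were Fam46c (r = 0.96) and Pnp (r = 0.96). For Msx2 they were Bcl7a (r = 0.97) and Inadl (r = 0.96). For Dlx3 they were Slc8b1 (r = 0.96) and mmu-mir-7646 (r = 0.95). The levels of mmu-mir-7646 lay far apart within groups, at 33.8 and 3.24 TPM in NFIB-cKO and 0 and 18.42 TPM in NFIB/X-dKO. For Cux1 they were Wbscr16 (r = 0.99) and Wdr73 (r = 0.98). For Cdh3 they were Tcf19 (r = 0.98) and Hpn (r = 0.97). For Tchh they were Kctd1 (r = 0.97) and Paxbp1 (r = 0.95). Of these, Wbscr16 and Wdr73 shared the split of Cux1 by series: Wdr73 was at 15.01 to 16.8 TPM in the 30s and 8.76 to 10.93 TPM in the 80s. Hpn, which encodes the protease hepsin, was at 4.85 and 5.69 TPM in WT and 7.64 to 15.77 TPM in the knockouts, which lay above WT as for Cdh3. With 8 points that share group and series, and so many genes searched, high values are reached easily, and they are given as a description.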

How the data were processed

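Per the labels, RNA was taken up in TRIzol LS, cleaned on Direct-zol columns, made into TruSeq mRNA libraries and sequenced as paired ends. The authors deposited TPM for 8 libraries and, for 5, gene tables with expected counts, TPM, FPKM (not used) and transcript lengths, for which the submitters' processing notes name RSEM 1.2.30, Bowtie2 2.2.9 and the build mm10 (GRCm38). TPM sums to the same total in every library, so a rise in some genes lowers others. For read filters and annotation release: not given in the sources used here.

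limma 3.58.1 (R 4.3.3) was fitted on log2(TPM + 1) for all 8 libraries, with a variance trend, over genes with at least 1 TPM in 2 libraries. Rounded expected counts went into edgeR 4.0.16 (quasi-likelihood, TMM, filterByExpr) for NFIB/X-dKO against NFIX-cKO, with DESeq2 1.42.0 as an alternative. Both steps were tested on simulated data. Those data held changes in NFIB/X-dKO only and no difference between the animal series, so they do not give error rates for the libraries here. Gene positions came from GENCODE M21. The genes and lists were chosen with earlier results of these data known. The 10 genes were always named, and of each list those past the test; 1 list symbol found in more than 1 row was left out. The genes most similar in pattern to Lef1 and Runx1 are not reported here.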

Additional observations from a re-analysis of the deposited data

How the results depend on the processing

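No paired analysis was possible because the animal numbers in the titles differ in every group, so no 2 groups share a number. Single-gene values were repeated for the tested genes against WT and, elsewhere, for those with an unadjusted p under 0.05. Each setting kept its own filter, so scaling tested 15316 genes.

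No gene of the set was called by any setting in NFIB-cKO against WT, NFIX-cKO against WT, NFIB/X-dKO against NFIX-cKO by limma or the non-additive contrast. Leaving out 1 library gave 0 to 1 called in NFIB/X-dKO against WT (Msx1 without either NFIX-cKO library) and 0 to 1 in the mean NFIB contrast (Lef1 without NFIX-cKO 32). The series covariate gave 1 there (Cdh3), and fitting the 2 groups alone gave 1 in NFIB/X-dKO against NFIB-cKO (Msx1). By counts the range without 1 library was 0 to 3: without NFIX-cKO 32, Lef1, Msx1 and Cux1 passed edgeR, along with 6939 genes in all. For the series term, whose alternatives were chosen after seeing the data, 0 were called with no filter, 0 after scaling, and 0 to 1 without 1 library.

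Signs turned for values that passed no test. Ranges are over leaving out 1 library, and the libraries named gave the turned sign. In NFIB/X-dKO against WT, Dlx3 ranged from -0.38 to 0.18 (NFIB/X-dKO 33) and Runx1 from -0.24 to 0.22 (WT 82, and 0.18 for NFIB/X-dKO 33), with 0.22 within the 30s. The series covariate gave Runx1 0.26 and Cux1 -0.10. In NFIB-cKO, Msx2 ranged from -0.15 (NFIB-cKO 81) to 0.33, Dlx3 from -0.20 to 0.13 (NFIB-cKO 85) and Cux1 from -0.48 to 0.090 (WT 34), with 0.090 within the 80s. The covariate gave Dlx3 0.080 and Cux1 0.19. In NFIX-cKO, NFIX-cKO 88 turned Lef1 (-0.19 to 0.94), Msx2 (-0.28 to 0.037), Dlx3 (-0.42 to 0.028) and Cux1 (-0.51 to 0.48), NFIX-cKO 32 turned Msx1 (-0.98 to 0.085), and Cux1 was 0.27 without WT 34 and 0.036 after scaling. The cause was not tested.

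Counts over all genes moved more. NFIB/X-dKO against WT called 445 genes, 270 with no filter, 728 within the 30s and 40 to 579 without 1 library. NFIB-cKO against WT called 111, 29 with no filter, 200 with the covariate, 2 within the 80s and 11 to 157 without 1 library. NFIX-cKO against WT called 23, 44 with the covariate, 12 with the 2 groups alone and 13 to 18 without 1 library. NFIB/X-dKO against NFIB-cKO called 35, 23 with a pseudocount of 0.1, 71 with no filter, 17 at a minimum of 5 TPM, 22 with the covariate, 3086 with the 2 groups alone and 8 to 74 without 1 library. NFIB/X-dKO against NFIX-cKO called 121, 39 with the 2 groups alone, 18 within the 30s and 6 to 105 without 1 library. The non-additive contrast called 18, 9 with a pseudocount of 0.1, 61 with no filter, 10 at 5 TPM and 6 to 16 without 1 library. The mean NFIB contrast called 382, 210 with no filter, 1214 with the covariate and 63 to 372 without 1 library. By counts 59 passed edgeR, 825 DESeq2, 202 with no filter, 121 limma on TPM and 0 to 6939 without 1 library. The series term called 2435, 29 with no filter, 1083 after scaling and 0 to 2965 without 1 library. These causes were not tested. Depth limits Padi3, and is unknown for 3 libraries.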
